A study of Mus musculus with 169 samples.

Results

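Toll-like receptors (TLRs) sense microbial and endogenous ligands, and 10 of their genes were measured in microglia sorted from mice with and without progranulin (Grn). The members were the probes whose transcript accession maps to Tlr1, Tlr2, Tlr3, Tlr4, Tlr5, Tlr6, Tlr7, Tlr9, Tlr12 and Tlr13, which gave 11 probes of 55681 on the array and 10 genes of 20145 with a symbol. Tlr1, Tlr2, Tlr4, Tlr5 and Tlr6 were taken as surface receptors, and Tlr3, Tlr7, Tlr9, Tlr12 and Tlr13 as endosomal receptors. Expression was read on 15 single-colour Agilent arrays from 4 groups, all on a C57B/6J background: Grn-/- (KO) and Grn+/+ (WT) microglia of 16 months, with 4 arrays each, and KO and WT microglia of 4 months, with 3 and 4 arrays. Per the labels, cells came from a Percoll gradient and were then flow sorted by CD11b, CD45 and Ly6G. The labels do not say how many mice stand behind an array, so p-values measure the spread between these samples, which may be technical.

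TLRs at the plasma membrane recognise lipids, lipopeptides and flagellin of microbes, whereas those in endosomes recognise nucleic acids and, in mice, also the parasite protein profilin. Most TLRs signal through the adaptor Myd88 to NF-kB, AP-1 and interferon regulatory factors, and the endosomal receptors reach their compartment with the chaperone Unc93b1. In brain, microglia are a main site of TLR expression.

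All values below are levels on the log2 scale, the processed signal of a spot over the 75th percentile of its array, so that a level of 0 is the 75th percentile itself. A floor of -4.94 was set for signals too dim to be ranked. A gene was called where limma's moderated test, two-sided, gave a Benjamini-Hochberg adjusted p under 0.05 over 31927 features. Arrays 1 and 2 of WT at 16 months, and likewise arrays 3 and 4, differed by a scaled median absolute deviation of 0.124 and 0.0954, less than repeat spots of 1 probe within those arrays did (0.154 to 0.173), whereas the other pairs of that group differed by 0.871 to 0.919. Each such pair was counted as 1 sample, so WT at 16 months had 2 replicates and the fit 13 in all.

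At 16 months, 7 of the 10 receptor genes were lower in KO microglia, 4 of 5 surface receptors (Tlr1, Tlr4, Tlr5, Tlr6) and 3 of 5 endosomal receptors (Tlr7, Tlr12, Tlr13), and 0 were higher by limma (0 also at an unadjusted p under 0.05). Of all features tested, 15.1% were called lower and 19.3% higher. The median difference was -2.41 in the surface receptors and -2.26 in the endosomal receptors, beside 0.12 over all features. The ranges of both classes overlapped, at -4.69 to -1.05 in the surface receptors and -7.69 to 0.15 in the endosomal receptors, and a difference between the classes was not tested. Tlr12 fell most, with a difference of -7.69, whereas Tlr2, Tlr3 and Tlr9 did not pass the test. These tests used 1 spread estimated over all 4 groups, though replicates spread more at 16 months. For Tlr1 the SD was 1.00 in KO and 1.96 in WT at 16 months, against 0.19 and 0.23 at 4 months. With the arrays of 16 months fitted alone, only Tlr12 of the receptors was called (limma, adjusted p = 0.0381), and 1704 of the 31927 features were lower. At 4 months 0 of 10 were called by limma (0 also at an unadjusted p under 0.05), where 0.0251% of all features were called.

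RefSeq promoters (build GRCm38.p6) were on hand for 8 of the 10 genes, 10 start sites in all. The 250 bases before the start are shown for 4 receptors. In 3 of them the KO difference was called as unlike between the ages, which were on separate slides, and the other is Tlr9, which was not called. Capitals mark matches, on either strand, to 4 motifs: PU.1 (GAGGAA), AP-1 (TGANTCA), an interferon regulatory factor motif (GAAANNGAAA) and NF-kB (GGGNNTTTCC). The Tlr12 window lies at chr4:128618620-128618869 on the minus strand, 1 of the 2 Tlr6 windows at chr5:64959167-64959416 on the minus strand, the Tlr13 window at chrX:106143025-106143274 on the plus strand and the Tlr9 window at chr9:106222348-106222597 on the plus strand.
Tlr12: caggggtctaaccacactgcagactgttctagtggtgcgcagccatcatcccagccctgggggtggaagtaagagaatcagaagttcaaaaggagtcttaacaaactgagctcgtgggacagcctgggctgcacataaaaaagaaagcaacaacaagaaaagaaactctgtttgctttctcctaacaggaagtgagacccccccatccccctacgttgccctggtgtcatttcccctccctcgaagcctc
Tlr6: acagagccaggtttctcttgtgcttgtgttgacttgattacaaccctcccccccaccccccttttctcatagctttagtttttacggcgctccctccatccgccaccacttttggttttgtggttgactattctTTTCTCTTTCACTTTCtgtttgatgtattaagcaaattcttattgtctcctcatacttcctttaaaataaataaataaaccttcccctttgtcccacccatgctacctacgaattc
Tlr13: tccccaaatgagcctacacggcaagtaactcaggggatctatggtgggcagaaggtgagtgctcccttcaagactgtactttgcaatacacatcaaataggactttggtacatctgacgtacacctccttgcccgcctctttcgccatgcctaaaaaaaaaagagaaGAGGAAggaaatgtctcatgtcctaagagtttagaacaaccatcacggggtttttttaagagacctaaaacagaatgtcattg
Tlr9: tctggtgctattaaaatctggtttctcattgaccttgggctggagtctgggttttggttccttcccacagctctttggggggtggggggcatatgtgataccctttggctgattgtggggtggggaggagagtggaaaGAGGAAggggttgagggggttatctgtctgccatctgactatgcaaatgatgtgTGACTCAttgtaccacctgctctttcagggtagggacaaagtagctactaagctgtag
The Tlr12 window held none of the 4 motifs. In the Tlr6 window shown, the capitals are 2 overlapping matches to the interferon regulatory factor motif on the reverse strand, which 2.98% of all 32841 promoters and 1 of the 10 member promoters hold. The other Tlr6 window, at chr5:64960049-64960298, held none of the motifs. Tlr13 and Tlr9 each had a PU.1 match, found in 23.3% of all promoters and in 3 of the 10 member promoters, and Tlr9 also had an AP-1 match, found in 6.75% and in 1 of 10. The NF-kB motif, present in 1.41% of all promoters, occurred in 1 member promoter, that of Tlr3. The matches are descriptions of the letters only, and 5 of the 10 windows held none of the motifs.

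Grn itself was at the floor on the 4 KO arrays of 16 months, against 5.04 ± 0.60 (SD, n = 2) in WT, and at -2.77 ± 0.66 (n = 3) in KO, against 6.25 ± 0.086 (n = 4) in WT, at 4 months. The KO arrays of 16 months were the dimmest, with 54.2 to 62.7% of probes well above background, against 64.6 to 69.8% in WT of that age, 66.4 to 73.0% in KO and 70.3 to 76.5% in WT at 4 months. They also stood apart on the first principal component (62.0% of the variance), at 214 to 261, where the remaining replicates lay between -156 and -10.8. Of 10 microglia markers, 9 were lower in KO at 16 months with a median difference of -2.84, and their mean level was 2.96 to 5.10 in KO, against 6.30 to 7.10 in WT. Of 6 choroid plexus epithelium markers, 4 were higher, with a mean level of 5.86 to 6.20 in KO, against 2.86 to 4.57 in WT. Of 6 oligodendrocyte markers, 4 were lower and 1 higher (mean -0.32 to 0.27 in KO, against 1.32 to 1.75 in WT), and of 5 endothelium markers 2 were lower (-2.43 to 0.76 in KO, against 0.46 to 0.82 in WT). The 1 red blood cell marker tested was higher by 4.42, and neutrophil markers, 1 of 8 called higher, averaged -4.49 to 1.48 in KO, against 0.27 to 1.81 in WT. None of the border macrophage markers was called (0 of 7), and Cd163 was not above background in KO. Their mean level was 0.45 to 2.41 in KO, against 1.55 to 2.29 in WT. At 4 months it was -1.94 to -1.65 in KO and -3.02 to -2.29 in WT, lower than at 16 months in both genotypes. Choroid plexus markers of 4 months averaged 1.34 to 2.385 in KO, against -2.46 to 0.175 in WT, without overlap, and 0 of 6 were called. In sorted cells, fewer cells of a type and less RNA per cell cannot be told apart. The part of these shifts in the receptor results, within an age or between ages, was not tested. Each age was hybridised on its own slide, with the genotypes in separate rows, so age cannot be told apart from slide, nor genotype from row.

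**Figure D1:**
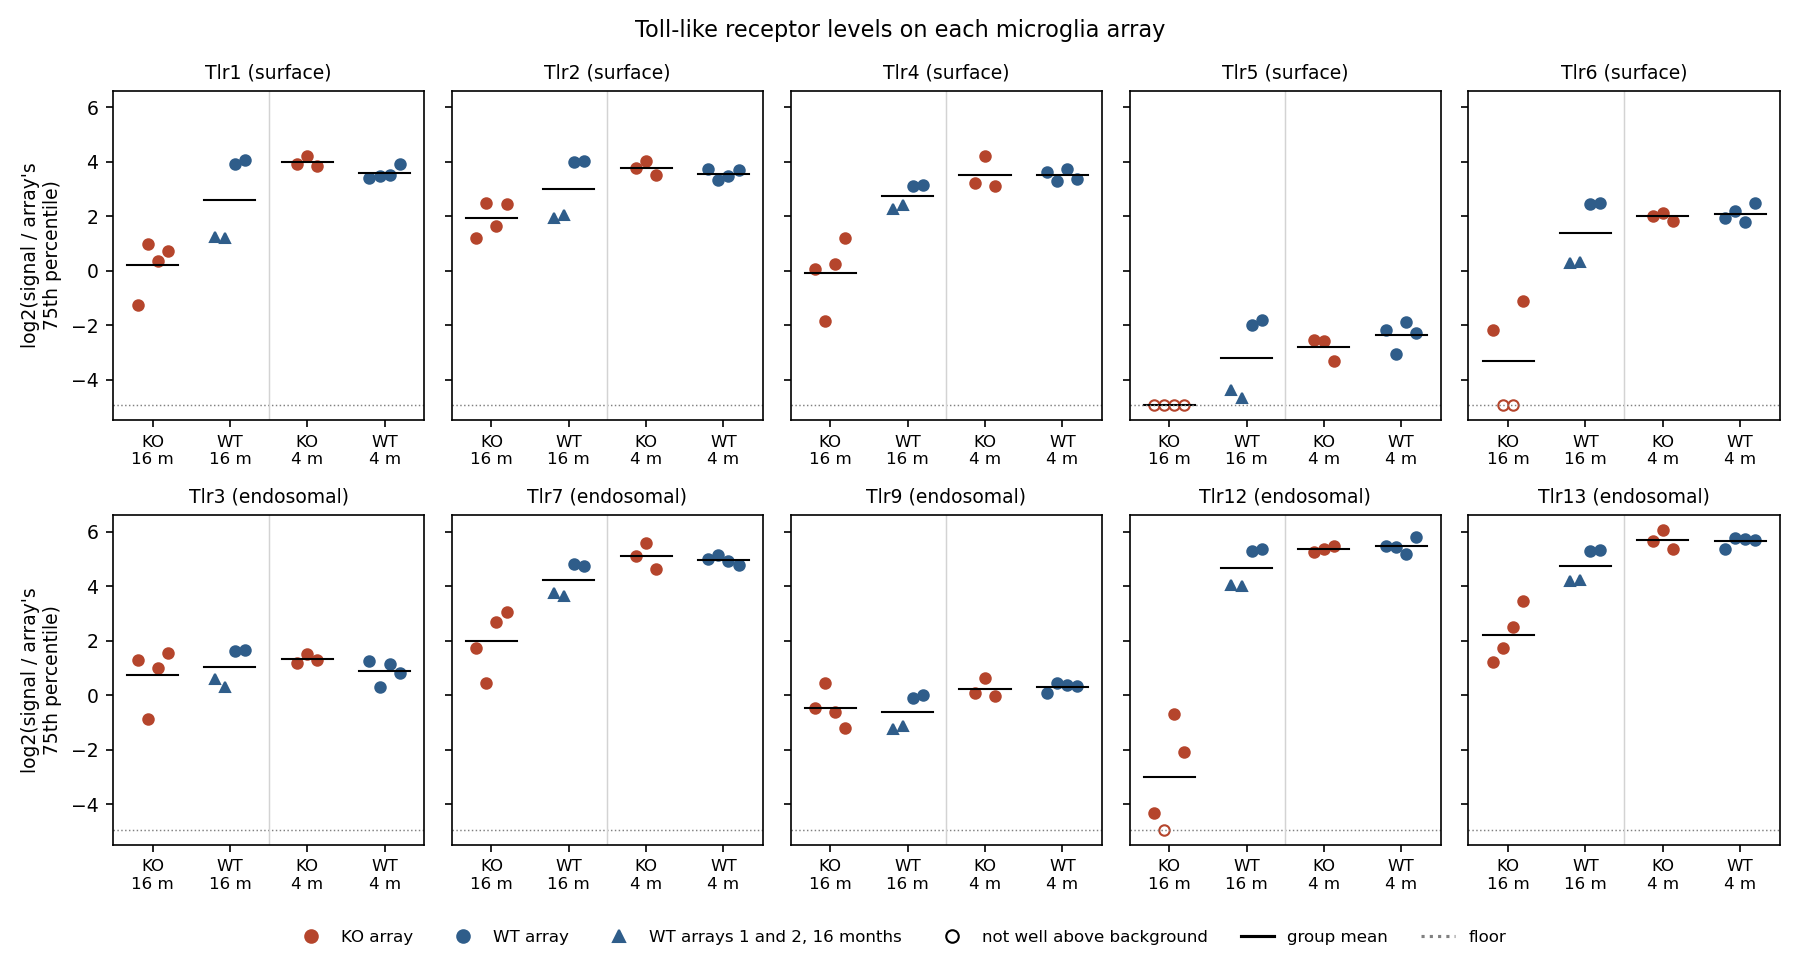
Level of each receptor (log2 ratio of its signal to the 75th percentile of that array) on every array, with surface receptors in the upper row, endosomal receptors in the lower row, and KO left of WT within each age (m, months). Black lines are group means, open symbols are signals not well above background, and triangles are WT arrays 1 and 2 of 16 months; the 4 KO arrays of 16 months lie below the WT arrays for 7 receptors, and the groups of 4 months overlap for all 10.

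Among the surface receptors, Tlr6 and Tlr1 encode the partners with which Tlr2 forms receptors for bacterial lipopeptides. Tlr6 levels were -2.20, -4.94, -4.94 and -1.13 on the KO arrays of 16 months, against 0.30 and 0.31 on WT arrays 1 and 2 and 2.43 and 2.50 on arrays 3 and 4. All KO arrays were lower than all WT arrays, and 2 of the 4 KO arrays were not above background and stood at the floor. The difference was -4.69 (SE 1.01, adjusted p = 0.00538), a 25.7-fold lower level with those floor values included. Tlr1 levels were -1.25, 0.98, 0.35 and 0.71 in KO, against 1.23, 1.20, 3.93 and 4.05 in WT, a difference of -2.41 (SE 0.72, adjusted p = 0.0257). Here the highest KO array came within a narrow margin of WT arrays 1 and 2 and lay far under arrays 3 and 4. The genes of Tlr1 and Tlr6 are neighbours on chromosome 5.

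Tlr4 encodes the receptor for lipopolysaccharide. Its levels were 0.08, -1.86, 0.26 and 1.21 in KO of 16 months, against 2.26, 2.41, 3.11 and 3.13 in WT. The groups did not overlap, and the difference was -2.81 (SE 0.67, adjusted p = 0.00946), or 6.99-fold. Tlr5, the flagellin receptor, was not well above background on any of the 4 KO arrays, against -4.37, -4.66, -1.98 and -1.82 in WT. WT arrays 1 and 2 were themselves close to the floor, and the KO mean differed by -0.43 from them and by -3.04 from arrays 3 and 4. By the group means the level was 3.33-fold lower in KO, with all 4 KO values set to the floor (difference -1.74, SE 0.58, adjusted p = 0.0407). This call was the least firm of the 7: it was lost in 16 of 25 other settings, among them the replicate block (adjusted p = 0.0883) and leaving out any 1 of the KO arrays of 16 months (adjusted p 0.06 to 0.0687), with a range of adjusted p from 0.00117 to 0.502 over all of them.

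Tlr2, which pairs with Tlr1 or Tlr6, was the one surface receptor that was not called. Its levels, each a mean of up to 10 spots per array, were 1.21, 2.48, 1.64 and 2.45 in KO of 16 months, against 1.93 and 2.03 on WT arrays 1 and 2 and 4.00 and 4.03 on arrays 3 and 4. KO arrays lay on both sides of WT arrays 1 and 2 and under arrays 3 and 4. The difference was -1.05 (95% confidence interval -2.19 to 0.084, adjusted p = 0.138), and without WT arrays 1 and 2 it was -2.07 (adjusted p = 0.0107), against -0.04 without arrays 3 and 4 (adjusted p = 1).

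Among the endosomal receptors, Tlr12 had the largest fall. In mice Tlr12 recognises profilin of Toxoplasma. Its levels were -4.32, -4.94, -0.71 and -2.08 in KO of 16 months, against 4.06, 4.00, 5.29 and 5.36 in WT. Every KO array was far below every WT array, and 3 of the 4 KO arrays were still above background. The difference was -7.69 (SE 0.96, adjusted p = 0.000339), or 206-fold with 1 KO array at the floor. Only 1 of the 31927 features had a more negative difference, Grn itself (-9.98), the gene missing in KO. Tlr12 was called in all 25 other settings in which it was tested, with differences from -8.46 to -6.66 and adjusted p from 8.23e-06 to 0.0381.

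Tlr13, the mouse receptor for bacterial ribosomal RNA, had levels of 1.22, 1.72, 2.49 and 3.45 in KO of 16 months, against 4.18, 4.23, 5.27 and 5.33 in WT. The groups did not overlap (difference -2.53, SE 0.53, adjusted p = 0.0049, or 5.79-fold). Tlr7, which recognises RNA, was measured by 2 probes. The probe with the higher mean gave 1.71, 0.43, 2.68 and 3.05 in KO, against 3.74, 3.62, 4.82 and 4.74 in WT, and the other gave 0.93, 0.08, 1.96 and 1.96 in KO, against 3.75, 3.77, 4.59 and 4.58 in WT. Both separated the groups, and with every probe tested on its own the differences were -2.26 (adjusted p = 0.0206) and -2.94 (adjusted p = 0.00186). In the fit with 1 probe per gene, Tlr7 differed by -2.26 (SE 0.62, adjusted p = 0.0179).

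Tlr3 and Tlr9 were not called. Tlr3, the receptor for viral duplex RNA and the family member that signals without Myd88, had levels of 1.30, -0.88, 0.98 and 1.54 in KO of 16 months, against 0.59, 0.28, 1.63 and 1.66 in WT. KO array 2 was the lowest and the groups overlapped (difference -0.31, 95% confidence interval -1.66 to 1.04, adjusted p = 0.754). The sign of Tlr3 turned without KO array 2 (0.23) and without WT arrays 3 and 4 (0.30). Tlr9, which recognises unmethylated CpG DNA, had levels of -0.47, 0.45, -0.63 and -1.21 in KO, against -1.24, -1.12, -0.09 and -0.01 in WT. The groups overlapped over nearly their whole range (difference 0.15, 95% confidence interval -0.81 to 1.10, adjusted p = 0.847), and the sign turned when the 75th percentile was taken over the probes above background on all arrays (-0.17), without KO array 2 (-0.16) and without WT arrays 1 and 2 (-0.42). The intervals of both leave room for changes of either sign.

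Without overlap between the KO and WT replicates, lower in KO, were 7 of the 10 receptors, beside 18.1% of all features. Set beside the microglia markers at 16 months, 6 of the 10 markers fell more than Tlr1, Tlr7 or Tlr13 did and 5 more than Tlr4, whereas none fell more than Tlr6 or Tlr12. Tlr5 could not be placed among the markers, since its KO values were all at the floor and the size of its fall is unknown. As a ratio within each replicate to the mean of the microglia markers, a measure added after the values were seen, Tlr12 lay between -8.35 and -5.25 in KO of 16 months, against -2.28 to -1.78 in WT. It was the one member below WT in every KO replicate on that ratio, beside 1.12% of all features. Tlr2, Tlr3 and Tlr9 were above WT in every KO replicate, as 70.6% of all features were, and the other 6 overlapped. Of these 6, Tlr5 had KO ratios that were all set by the floor, so its overlap carries no information. Tlr6 on that ratio ranged from -9.49 to -5.15 in KO, against -6.00 to -4.64 in WT. KO arrays 2 and 3 for Tlr6 and KO array 2 for Tlr12 were at the floor, so those ratios depend on it.

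**Figure D2:**
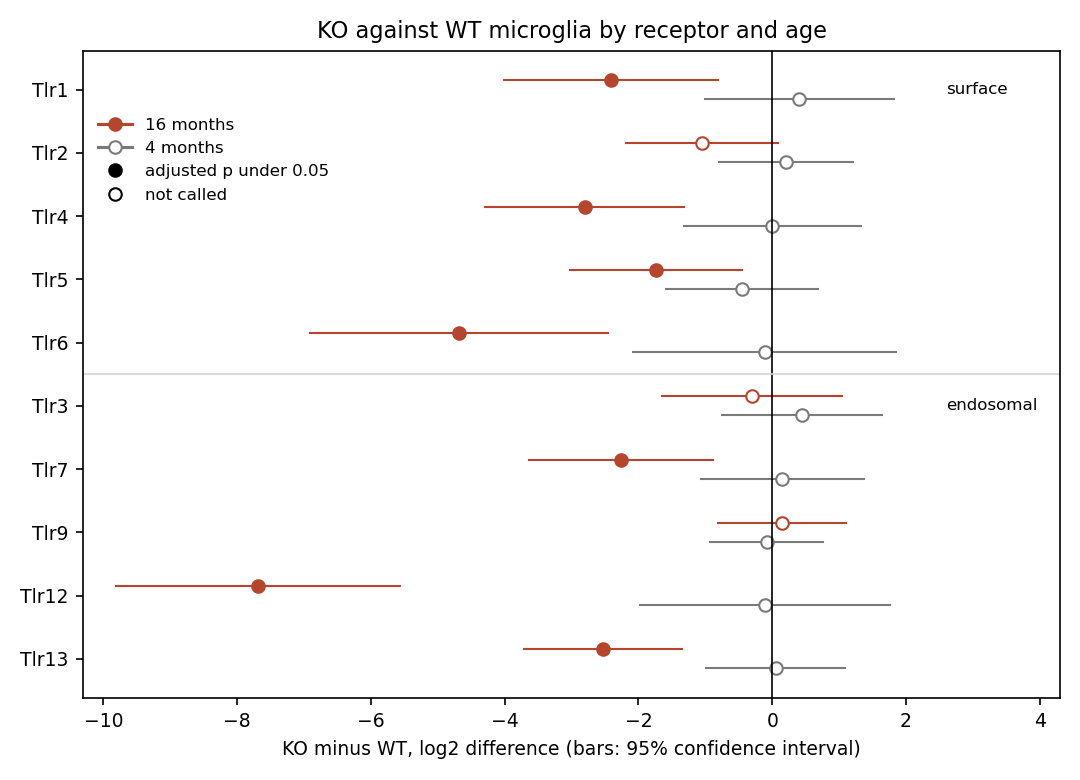
KO minus WT log2 difference of each receptor with its 95% confidence interval, at 16 months (red) and 4 months (grey), surface receptors above the line and endosomal receptors below. Filled circles passed an adjusted p of 0.05; all 7 are differences of 16 months, from -7.69 for Tlr12 to -1.74 for Tlr5, and the differences of 4 months lie between -0.45 and 0.44.

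In microglia of 4 months, no receptor was called, by a test whose spread was estimated over all 4 groups. Differences ran from -0.45 (Tlr5, SE 0.51) to 0.44 (Tlr3, SE 0.54), with a median of 0.03 beside 0 over all features, and the groups overlapped for all 10. Tlr12 had levels of 5.26, 5.36 and 5.49 in KO, against 5.49, 5.44, 5.18 and 5.80 in WT. Tlr6 had levels of 2.01, 2.12 and 1.83 in KO, against 1.95, 2.17, 1.77 and 2.49 in WT. Tlr13 had levels of 5.65, 6.06 and 5.38 in KO, against 5.37, 5.78, 5.72 and 5.71 in WT. In all 3 the KO and WT values of 4 months were interleaved. Tlr1 and Tlr3 came nearer to separating. Tlr1 levels were 3.91, 4.20 and 3.84 in KO, against 3.41, 3.49, 3.50 and 3.91 in WT, where only WT array 4 reached the KO range. Tlr3 levels were 1.17, 1.52 and 1.30 in KO, against 1.27, 0.31, 1.15 and 0.81 in WT, where only WT array 1 did. Tlr4 levels of 3.20, 4.22 and 3.1 in KO, against 3.62, 3.30, 3.73 and 3.36 in WT, were the most spread within KO, with array 2 highest. The smallest confidence interval, that of Tlr9, spanned -0.93 to 0.76, and the widest, that of Tlr6, -2.08 to 1.86. These intervals leave room for changes of either sign. Their widths rest on 1 spread estimated over all 4 groups, so they are not limits of detection for the 4-month arrays. For Tlr6 the SD was 0.15 in KO and 0.31 in WT at 4 months, against 1.94 and 1.53 at 16 months.

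Whether the KO difference itself changed with age was tested as an interaction, the difference at 16 months minus that at 4 months. It was called lower for 3 of 10 receptors, Tlr12 (-7.58, SE 1.28, adjusted p = 0.00576), Tlr13 (-2.59, SE 0.71, adjusted p = 0.0382) and Tlr6 (-4.58, SE 1.34, adjusted p = 0.0481), beside 6.48% of all features. The other 4 receptors that fell at 16 months had interactions from -2.81 (Tlr1, adjusted p = 0.0794) to -1.29 (Tlr5, adjusted p = 0.296) and were not called, so a change with age was not shown for them. For Tlr7, the probe not used in the fit gave -2.96 (adjusted p = 0.0193) and the one used gave -2.41 (adjusted p = 0.0905), both from the test of every probe. Over 24 other settings Tlr12 stayed called in 24 (adjusted p 0.000731 to 0.0177), Tlr6 in 10 of 24 (0.0127 to 0.163, and 0.136 with the replicate block) and Tlr13 in 14 of 25 (0.00798 to 0.127).

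Between WT microglia of 16 and 4 months, 0 of 10 receptors were called by limma (0 also at an unadjusted p under 0.05), beside 3.5% of all features. Differences of 16 minus 4 months were below 0 for 9 of 10, with a median of -0.79 beside -0.18 over all features, from -0.98 (Tlr1, SE 0.72, adjusted p = 0.553) to 0.16 (Tlr3). These medians rest on 2 WT replicates of 16 months that stood apart. WT arrays 1 and 2 were below arrays 3 and 4 for all 10 receptors, by a median of 1.25 beside 0.046 over all features, and below every WT array of 4 months for 9. In arrays 1 and 2 the microglia markers averaged 6.30, against 7.10 in arrays 3 and 4, and the choroid plexus markers 4.57, against 2.86. In WT of 4 months these lists averaged 7.02 to 7.33 and -2.46 to 0.175, and their part in the age differences was not tested. Without arrays 3 and 4, Tlr5 alone was called in WT of 16 against 4 months (-2.15, adjusted p = 0.0118).

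**Figure D3:**
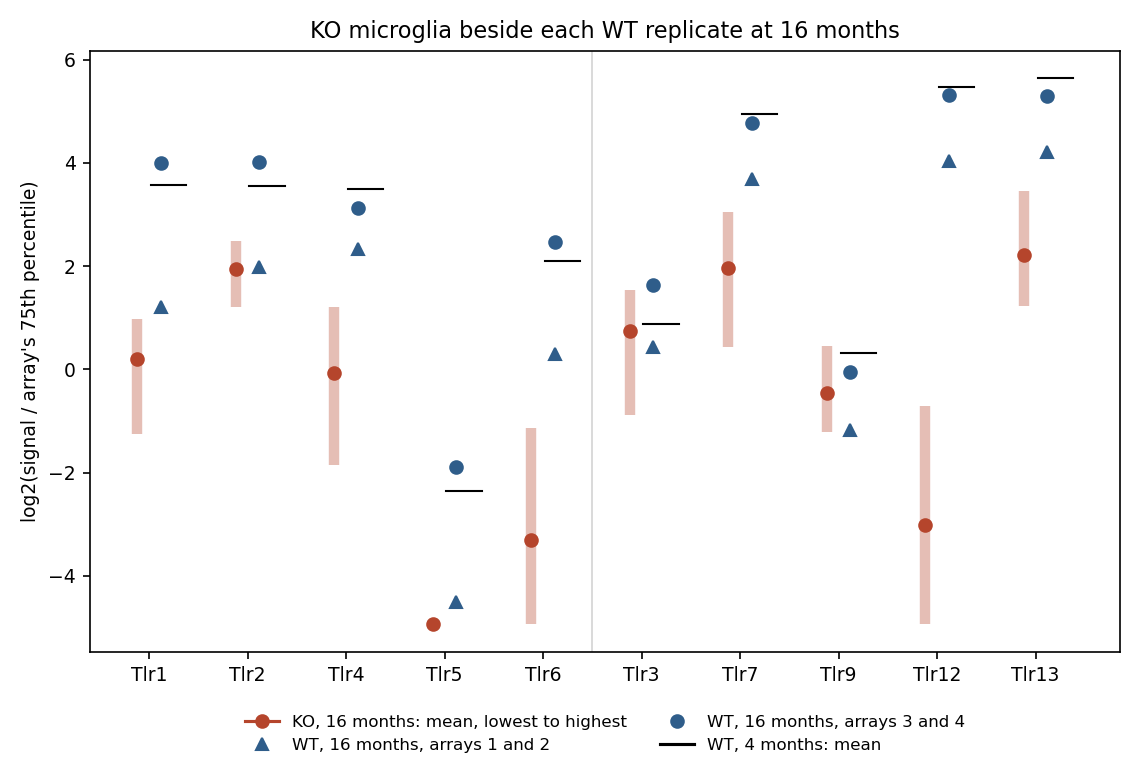
Levels (log2 ratio of the signal to the 75th percentile of that array) in KO microglia of 16 months, as the mean (red circle) and range of 4 arrays (red bar), beside each of the 2 WT replicates of that age (triangle, arrays 1 and 2; circle, arrays 3 and 4) and the mean of WT at 4 months (black line). Triangles lie below circles for all 10 receptors, and the KO mean of Tlr12 differs by -7.04 from the triangle and by -8.34 from the circle.

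The calls at 16 months depended on which WT replicate was present. Without WT arrays 1 and 2, the 7 receptors were all called, with differences from -8.34 (Tlr12) to -2.81 (Tlr7), and Tlr2 joined them. Without arrays 3 and 4, only Tlr12 was called (-7.04, adjusted p = 0.00344), and Tlr13 (-1.99, adjusted p = 0.0546), Tlr6 (-3.60, adjusted p = 0.0626), Tlr4 (-2.41, adjusted p = 0.0773), Tlr7 (-1.71, adjusted p = 0.15), Tlr1 (-1.02, adjusted p = 0.308) and Tlr5 (-0.43, adjusted p = 0.502) lost the call with the same sign. In both fits the lone WT replicate was assumed to vary like the other groups.

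The wider pathway was described through 7 lists of 78 genes, chosen with earlier results of these data known, of which 77 were tested. At 16 months 30 were lower (39.0%, beside 15.1% of all features) and 3 higher (3.9%, beside 19.3%) in KO, with a median difference of -1.09 beside 0.12, and at 4 months 0 were called by limma (3 at an unadjusted p under 0.05). By list, 7 of 12 transcription factors, 4 of 7 co-receptor and ligand delivery genes, 6 of 12 negative regulators, 5 of 11 induced genes and 4 of 9 chaperone and trafficking genes were lower. So were 3 of 20 kinases and ligases (15.0%) and 1 of 6 adaptors (16.7%), shares near that of all features, and differences between the lists were not tested. Without WT arrays 3 and 4, the count of lower genes was 12.

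**Figure D4:**
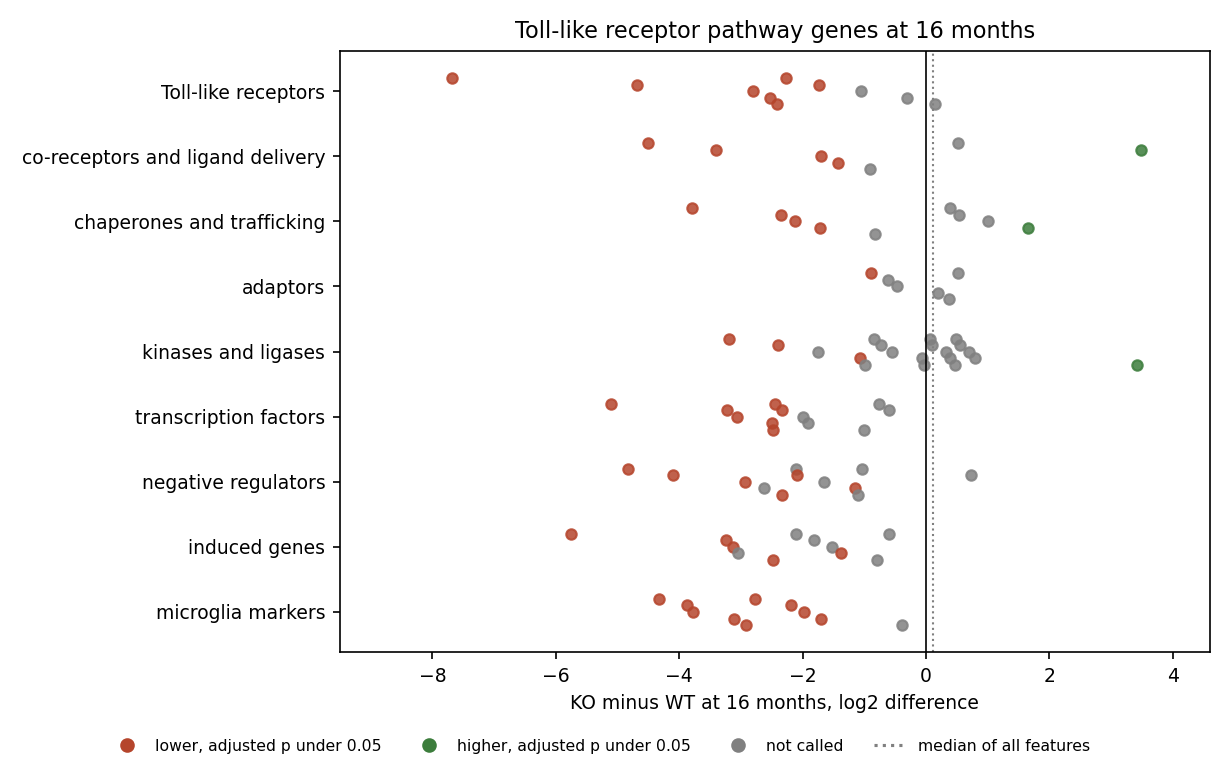
KO minus WT log2 difference at 16 months for each gene of the receptor family, the 7 pathway lists and the microglia markers (1 circle per gene, shifted vertically for visibility; dotted line, median of all features at 0.12). Red circles were called lower and green circles higher; 7 of 10 receptors and 9 of 10 microglia markers are red, as are 3 of 20 kinases and ligases and 1 of 6 adaptors.

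Genes that load or escort the receptors were among those that fell. Unc93b1, which carries endosomal receptors to their compartment, had a mean level of 0.66 in KO, against 4.46 in WT (difference -3.79, SE 0.54, adjusted p = 0.000685). Ly96, the lipopolysaccharide-binding partner of Tlr4, differed by -1.42 (adjusted p = 0.0348), and Cd14, which hands lipopolysaccharide to it, by -1.71 (adjusted p = 0.0412) with overlapping groups, a call kept in 12 of 26 other settings. Cd180, a TLR-like surface protein, and its partner Ly86 differed by -4.50 (adjusted p = 0.000357) and -3.41 (adjusted p = 0.00854), with Cd180 above background on 2 of 4 KO arrays. Lbp, the secreted lipopolysaccharide-binding protein, went the other way, at 6.18 in KO, against 2.70 in WT (difference 3.48, adjusted p = 0.00875), and its difference at 4 months was 4.07 (adjusted p = 0.152), not called. Of the 9 chaperone and trafficking genes, 4 were called lower, 1 higher and 4 were not called. The most negative after Unc93b1 were Slc15a4 (-2.35), an endolysosomal transporter, and Cnpy3 (-2.12), a TLR chaperone of the endoplasmic reticulum. Cnpy3 lost its call with the replicate block (adjusted p = 0.0847). Tram1 was higher (1.66, adjusted p = 0.0494) with overlapping groups. It kept that call in 6 of 26 other settings, not with the replicate block (adjusted p = 0.111).

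Downstream, Myd88 differed by -0.90 (SE 0.30, adjusted p = 0.0412), with mean levels of 1.77 in KO, against 2.67 in WT, and it was the one adaptor called. Its call held in 14 of 26 other settings and was lost with the replicate block (adjusted p = 0.0949). Of the kinases and ligases, Btk (-3.19), Irak4 (5.25-fold by the group means, above background on 0 of 4 KO arrays) and Peli1 (-1.07) were lower. Peli1 lost its call with the replicate block (adjusted p = 0.0771). Ube2n, a ubiquitin-conjugating enzyme, was higher (3.41, adjusted p = 0.00786), but by 0.46 (adjusted p = 0.308) where probes had to be above background on all arrays. Among the transcription factors, Jun (-5.11, adjusted p = 0.000573), Irf1 (-3.22) and Rel (-3.06, above background on 1 of 4 KO arrays) had the most negative differences. Of the 12 negative regulators, 6 were not called, and the 6 that fell were led by Il1rl1 (-4.82, above background on 1 of 4 KO arrays), the interleukin 33 receptor, Inpp5d (-4.11), a lipid phosphatase, and Tnfaip3 (-2.94), which edits ubiquitin on NF-kB activators. Of the genes that TLR ligands induce, Il6 (-5.76, above background on 2 of 4 KO arrays), Il1b (-3.24) and Cxcl10 (-3.12, groups overlapping) were lower. Where KO arrays stood at the floor, the size of the difference depends on that floor.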

How the data were processed

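The members and lists were chosen with earlier results of these data known. The deposited scanner files give, per the file headers, a processed signal intensity for each spot from Agilent Feature Extraction 10.7.3.1 on array design 028005, with flags for outlier spots and for spots well above background; R 2.15.3 is named in the submitters' processing notes. On the 4-month slide the deposited intensity also held a factor that varied with position (0.857 to 1.37, leaving out the outermost 1% of spots at either end), checked on the values, and on the 16-month slide it did not.

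From these, repeat spots were averaged without outlier spots, each array was divided by its 75th percentile, signals under 0.0326 of it (-4.94 on the log2 scale, the highest among arrays of the lowest signal well above background) were set to that floor, and log2 was taken. Probes well above background on at least 3 arrays were kept (45615 of 55681). Symbols came from RefSeq through the accession of each probe (26582 probes), and each gene kept the probe with the highest mean. One linear model over the 4 groups was fitted with limma 3.58.1 in R 4.3.3, with 13 replicates, two-sided tests and Benjamini-Hochberg adjustment over 31927 features. Labels give KO and WT the same replicate numbers without saying what they stand for. Deviations of same-numbered arrays correlated at -0.128 to -0.066 in 3 pairs of 4 months. At 16 months, where WT arrays stand for 2 samples, they correlated at 0.11 to 0.24 in 4 pairs. There KO arrays 1 and 2 correlated with WT arrays 1 and 2 at 0.061 to 0.24 and with arrays 3 and 4 at -0.218 to -0.076. For KO arrays 3 and 4 these values were -0.258 to -0.144 and 0.138 to 0.239. The labels do not explain this split, so the main fit held no block and the replicate block was run as an alternative. On simulated levels for KO minus WT at 16 months, 50 features per size were changed among 31927. The fit called 32% of changes of 2 on the log2 scale and 88% of changes of 4, and 3 unchanged features. The simulated noise of a feature had the same spread in every group and no floor, and changed features had mean levels above the 75th percentile. Its counts therefore do not cover spread that differs between the ages, or values at the floor. No array had a saturated spot, and the number of arrays limits the precision.

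Named genes are all 10 members, and from each pathway list up to 3 called genes that rose and 3 that fell by the largest difference at 16 months, with Myd88, Unc93b1, Cd14, Ly96, Tlr8 and Tlr11 whatever their values. The 3 features most like a member are those with the highest Pearson correlation over 13 replicates. The bead array table of brain tissue was not used here, since its probes could not be tied to genes. Per the series description, 1 Agilent sample was left out by the submitters. Alternatives covered the signal, normalization, scaling, floor, filter on dim probes, probe choice, WT replicates, replicate block, samples fitted and each replicate left out.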

Additional observations from a re-analysis of the deposited data

Results flagged for a closer look

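The KO minus WT difference changed between 16 and 4 months by the interaction test for 3 receptors. It was -4.58 for Tlr6 (adjusted p = 0.0481, 0.136 with the replicate block, from -4.69 at 16 months and -0.11 at 4 months), -7.58 for Tlr12 (adjusted p = 0.00576, from -7.69 and -0.11) and -2.59 for Tlr13 (adjusted p = 0.0382, from -2.53 and 0.05). At 16 months the KO replicates of all 3 were below both WT replicates, and at 4 months the groups overlapped. The ages were hybridised on separate slides, from which the interaction cannot be told apart. Levels of cell type markers also differed between the ages, and their part in the interaction was not tested. Among 20 groups of 4 samples, 10 receptors in KO of 16 months and in WT of 4 months, 0 held a sample apart by Dixon's test, where chance gives about 1 in 20. These groups share the same arrays, and levels of many of the receptors correlated, so they are not 20 separate chances. In KO of 16 months all 4 Tlr5 values were the floor, where the test cannot set a sample apart, and 2 of 4 Tlr6 values were.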

How the results depend on the processing

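The 7 receptors called lower in KO at 16 months became 4 of 7 tested where probes had to be above background on all arrays (fewer genes tested). They became 1, Tlr12 (adjusted p = 0.0381), where arrays of 16 months were fitted alone. That fit held fewer samples and no longer shared its spread with the 4-month groups, and these were not told apart. Leaving out 1 replicate gave 1 to 8. The 3 interactions became 1 with no filter on dim probes, 5 with the 4 WT arrays of 16 months as 4 replicates, and 1 to 6 on leaving out a replicate; WT of 16 against 4 months gave 0 to 1 on leaving out a replicate. Pathway genes called lower at 16 months went to 8 with that age fitted alone and 12 to 37 on leaving out a replicate, against 30. Those called higher, 3, became 1 under the filter on all arrays, 5 with 4 WT replicates, 1 with that age alone and 2 to 4 on leaving out a replicate. The replicate block gave 6 receptors lower, with Tlr5 lost (adjusted p = 0.0883), and 2 interactions, with Tlr6 lost (adjusted p = 0.136). Among named pathway genes it ended the calls of Cnpy3, Tram1, Myd88 and Peli1, and of named genes no other call changed. No result turned its sign among those called, whereas Tlr3 and Tlr9, not called, did at 16 months. The cause of these shifts was not tested. Taking the 75th percentile over probes above background on all arrays made 43% of called features higher at 16 months, against 56% as reported, and the filter on all arrays 64.7%; the receptors' median was then -2.65 and -2.26, against -2.33. Chosen after seeing the data were the normal-exponential correction on median spot signals, used because the planned one needs a column not in hand, and the signal without the position factor, which gave 6 and 7 receptors lower. The alternatives for brain tissue and for the mean spot signal were not run. For Tlr5, Tlr6 and Tlr12, signal near background limits the size of the difference.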

Other observations

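Receptors outside the family list were dim. Tlr11, the mouse partner of Tlr12 in profilin recognition, was not above background on the 4 KO arrays of 16 months, against -2.46, -2.48, -2.77 and -2.96 on the WT arrays, and its difference of -2.28 did not pass the test (adjusted p = 0.0535). At 4 months its levels were -4.79, -4.94 and -2.05 in KO, against -3.32, -4.94, -4.94 and -2.73 in WT, with the floor reached in both. Tlr8, which neighbours Tlr7 on the X chromosome, was above background on 1 of 15 arrays, a KO array of 4 months, and was not tested.

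Across the 13 replicates, levels of the 10 receptors correlated with each other at a median Pearson r of 0.837 over 45 pairs, from -0.197 to 0.986. All points share the split between KO of 16 months and the rest. Among 17797 other features with a symbol, those most like Tlr12 were Arl4c, Plxna4 and Tnfrsf17 (r = 0.994, 0.994 and 0.993). Tlr6 was most like Coro2a (0.99), Itgam (0.986), a microglia marker used in the sort as CD11b, and Ltb (0.98). Nearest to Tlr13 were Itpr2, Sash3 and Ecscr (0.994, 0.994 and 0.992), to Tlr7 Man1c1, Bach1 and Cyfip1 (0.994, 0.993 and 0.988), to Tlr4 Lmo2, Ppip5k2 and Gm10790 (0.992, 0.991 and 0.991), and to Tlr1 Garre1, P2rx4 and Ntpcr (0.993, 0.984 and 0.983). For Tlr2 they were Ncf1, Gna15 and Tep1 (0.977, 0.973 and 0.973), and for Tlr5 Tgfbr2, Iho1 and Mob1a (0.964, 0.963 and 0.962). Tlr9 was most like Zbtb46, Selenoo and Zfand2b (0.97, 0.963 and 0.946), and Tlr3 was most like Ireb2, Ptbp2 and Ripk2 (0.945, 0.944 and 0.935).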
